A study of Rattus norvegicus with 9 samples.

Results

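The antioxidant and Nrf2 target genes followed here are 10 genes, Nfe2l2, Hmox1, Nqo1, Gclc, Gclm, Txnrd1, Srxn1, Sod1, Sod2 and Cat. They were measured in rat adrenal medulla after immobilization, a restraint stress. Every probe set annotated to exactly 1 of these symbols was taken, which gave 14 probe sets among 20826 probe sets with 1 gene and 31099 probe sets in the table. Gclc and Txnrd1 each had 2 probe sets, Srxn1 had 3, and the other 7 genes had 1 each. The tissue came from adult rats (Rattus norvegicus) of 280 to 320 g. Rats labelled 1XIMO were immobilized in 1 session of 2 h, rats labelled 6XIMO had 6 daily sessions of 2 h each, and Control rats were left unstressed. The tissue was taken after the last session, and no group carried a genetic change or a drug. Each group had 3 arrays. The labels leave unsaid which arrays came from different animals, and p-values therefore reflect only how far these 9 arrays scatter, which may be technical.

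Nrf2, the protein of Nfe2l2, is a transcription factor that Keap1 normally hands to the Cul3 ubiquitin ligase for destruction. Oxidants and electrophiles stop that transfer, and Nrf2 then pairs with a small Maf protein and binds antioxidant response elements near genes that make glutathione, reduce thioredoxin and clear quinones and haem. Nrf2 is controlled largely at the protein level, so its own mRNA need not move when its targets do. In chromaffin cells, the catecholamine-making cells of the medulla, breakdown of catecholamines by monoamine oxidase releases hydrogen peroxide.

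Promoter windows from RefSeq (build GRCr8) were matched by symbol for 9 of the 10 genes, as 10 windows of 300 bases that run from 250 bases before to 50 bases after a gene's start. Hmox1 had no window in that table. Each window was searched on both strands for the letters TGACNNNGC, the core of an antioxidant response element, for TGAGNNNGC, a form of it, and for TGANTCA, the site of AP-1 factors. The last can overlap the second. TGACNNNGC was found in 4 of the 10 windows, those of Nfe2l2, Gclm, Sod2 and 1 of the 2 of Txnrd1, and in 12.1% of 33469 rat windows. TGAGNNNGC (17.2% of rat windows) and TGANTCA (7.33%) were found among these genes in the Srxn1 window only. That window held TGAGNNNGC at 3 places and TGANTCA at 2, and the TGANTCA that starts 5 bases before the gene's start lies inside a TGAGNNNGC match. In all, 5 of the 10 windows and 32% of rat windows held at least 1 of the motifs. The windows below are those of Srxn1, the gene with the largest rise among the 10, and of Txnrd1 and Gclm, a pair whose differences from Control had opposite signs. They are printed 5′ to 3′ on the gene's strand with matched letters in capitals, and a match on the other strand appears as its reverse complement.
Srxn1, chr3:161064562-161064861, plus strand: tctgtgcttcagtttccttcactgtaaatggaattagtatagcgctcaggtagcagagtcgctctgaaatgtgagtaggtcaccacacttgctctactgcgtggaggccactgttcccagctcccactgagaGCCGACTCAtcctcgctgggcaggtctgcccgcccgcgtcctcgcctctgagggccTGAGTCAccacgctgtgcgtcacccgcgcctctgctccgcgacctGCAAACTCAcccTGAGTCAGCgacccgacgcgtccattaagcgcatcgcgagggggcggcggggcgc
Txnrd1, chr7:22755855-22756154, minus strand: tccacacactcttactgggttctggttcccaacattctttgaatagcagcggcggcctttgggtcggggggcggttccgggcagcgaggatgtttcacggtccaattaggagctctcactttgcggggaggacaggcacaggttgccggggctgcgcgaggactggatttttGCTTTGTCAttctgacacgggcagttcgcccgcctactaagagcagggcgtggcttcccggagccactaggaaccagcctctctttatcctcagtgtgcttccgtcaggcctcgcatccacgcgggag
Gclm, chr2:213031885-213032184, plus strand: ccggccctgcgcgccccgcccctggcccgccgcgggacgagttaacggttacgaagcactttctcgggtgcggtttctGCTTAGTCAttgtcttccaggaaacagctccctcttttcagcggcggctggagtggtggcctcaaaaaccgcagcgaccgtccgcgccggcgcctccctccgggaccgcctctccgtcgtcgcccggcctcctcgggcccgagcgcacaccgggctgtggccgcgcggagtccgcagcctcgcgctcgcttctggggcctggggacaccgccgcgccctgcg
A match describes these letters and is not evidence that a factor binds there.

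Levels are log2(intensity + 16) of the deposited values, and differences are on that scale. Of the 14 probe sets, 13 were bright enough to be tested, and the dimmest of the Srxn1 probe sets was left out with the dimmest 30% of the array. The fit, limma over 15722 probe sets and all 9 arrays, called a probe set at a Benjamini-Hochberg adjusted p under 0.05. The 6XIMO arrays stood apart in their array controls. The actin 3′/5′ ratio, which grows as RNA becomes less complete, was 230.6, 6.106 and 8.874 in 6XIMO replicates 1, 2 and 3, while no Control array exceeded 2.155 and no 1XIMO array exceeded 1.992. Correlations across probe sets between replicate 1 of 6XIMO and any other array were 0.555 to 0.694, and results are also given without this array. Markers of chromaffin cells (Th, Dbh, Pnmt, Chga) and of adrenal cortex (Star, Cyp11a1) were bright on every array, with levels of at least 15.24, so the dissected medulla also held cortex RNA.

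**Figure D1:**
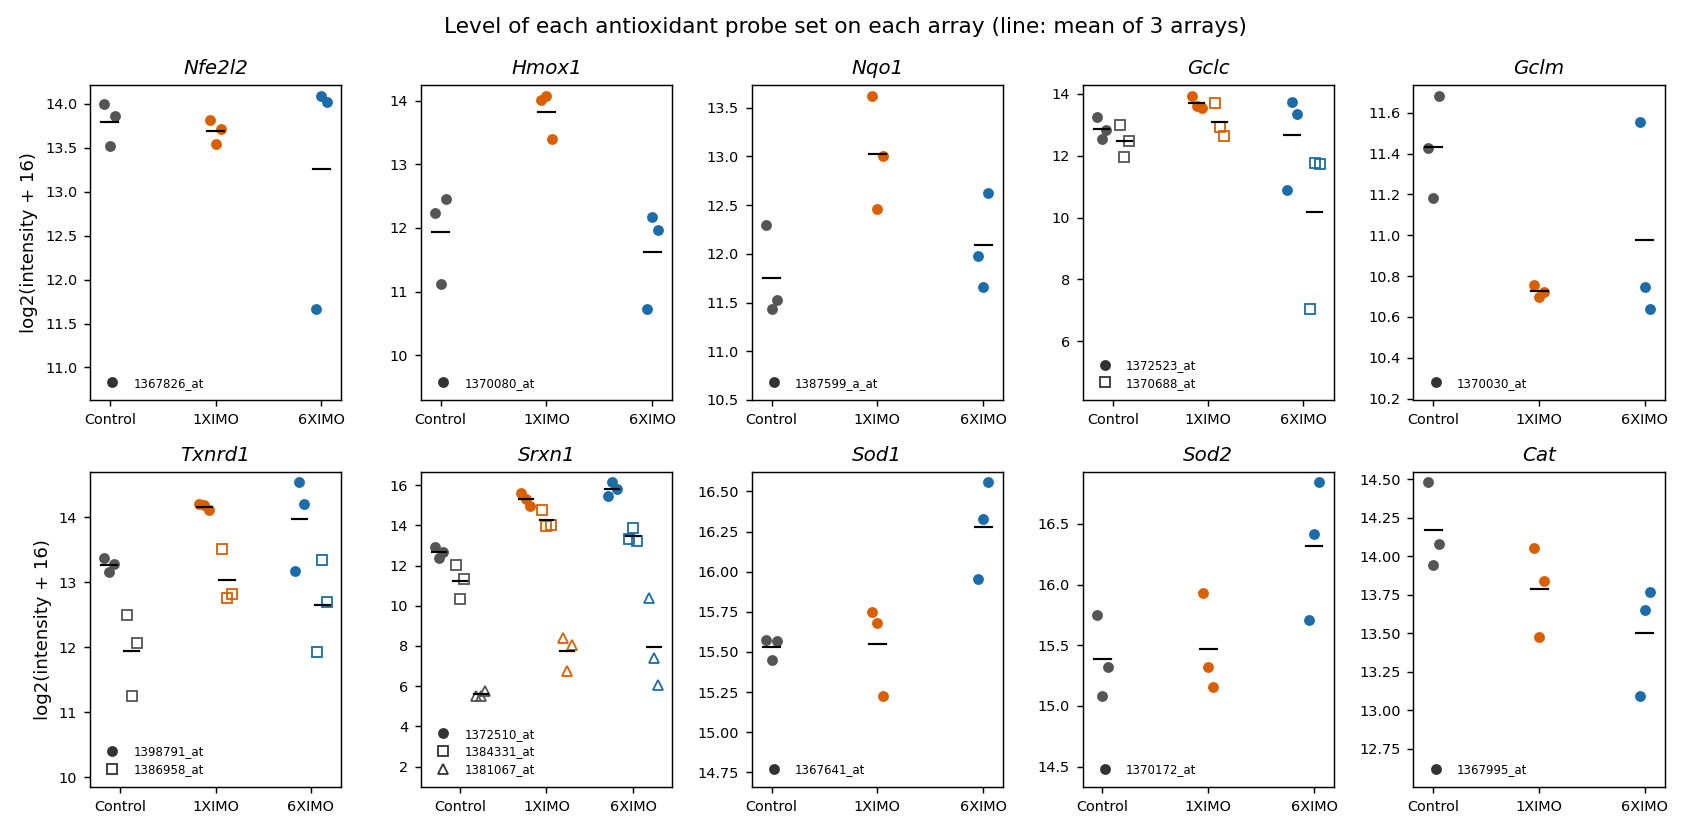
Level of each member probe set, log2(intensity + 16), on each of the 9 arrays by group (replicates 1, 2 and 3 from left to right), with the group mean as a line; symbols tell the probe sets of a gene apart. Both bright Srxn1 probe sets lie above all Control arrays in each stressed group, and Hmox1 is high in 1XIMO only. Replicate 1 lies below the other 6XIMO arrays for most probe sets, among them those of Nfe2l2, Gclc and Txnrd1.

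After 1 session, the transcripts of Srxn1 and Hmox1 rose. Both bright Srxn1 probe sets and the Hmox1 probe set passed the test, 3 of the 13 tested, where 3.64% of all probe sets passed as higher, and 0 members passed as lower, where 3.63% did. The median difference of the 13 was 0.83, against -0.12 over all probe sets. Without a test, 7 of the 13 lay above all Control arrays, as 13.2% of all probe sets did, and 1 lay below them, as 26% did. At an unadjusted p under 0.05, 6 were higher and 1 was lower, where 7.42% and 12.2% of all probe sets were. Deviations of Control and 1XIMO arrays of the same number correlated at 0.24 to 0.58, though those of different numbers reached 0.36. A fit of only these groups with the number as a block was chosen after seeing the data. It gave 8 higher and 2 lower, where 12% and 22.9% of all probe sets were.

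Srxn1 encodes sulfiredoxin, which restores peroxiredoxins that peroxide has over-oxidised. Its brightest probe set (1372510_at) had levels of 15.60, 15.31 and 14.98 in 1XIMO, against 12.91, 12.39 and 12.68 in Control. Every stressed array lay more than 2 log2 units above every Control array. The difference was 2.63 ± 0.26 (SE), a 6.21-fold rise (adjusted p = 0.000443). The second probe set (1384331_at) read 14.75, 13.98 and 14.03 in 1XIMO, against 12.04, 10.32 and 11.35 in Control. The groups did not overlap, and the rise was 3.02 ± 0.41 (adjusted p = 0.00241). The dimmest one (1381067_at), which was not tested, read 8.42, 6.73 and 8.04 in 1XIMO and 5.50, 5.53 and 5.78 in Control, also without overlap. In bulk tissue a change in the number of cells of a type cannot be told apart from a change in RNA per cell.

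Hmox1 encodes haem oxygenase 1, which opens haem to release biliverdin, carbon monoxide and iron, and which heat and cytokines also induce. Its levels were 14.003, 14.08 and 13.40 in 1XIMO, against 12.23, 11.12 and 12.45 in Control. The lowest 1XIMO array lay above the highest Control array. The rise was 1.90 ± 0.44 (SE), or 3.72-fold (adjusted p = 0.0319). The call was close to the threshold. It was lost without any one Control array (adjusted p = 0.0677, 0.123 and 0.0667 without replicates 1, 2 and 3) or any one 1XIMO array (0.11, 0.127 and 0.0752), with the replicate number as a block over all 9 arrays (0.0699), with quantile normalization (0.117) and with median centring (0.249), while the difference stayed between 1.49 and 2.15 over 21 alternatives. It passed in a fit of only the Control and 1XIMO arrays (adjusted p = 0.00634), and in that fit with the block (0.00148). Macrophages also break down haem, and red cells carry it. Of 11 tested macrophage and leukocyte markers 0 passed in either direction, and their summed intensity was 109421 to 131946 in 1XIMO, against 112668 to 133029 in Control. Cd163, the macrophage haemoglobin receptor, differed by 0.07 (adjusted p = 0.983). Cd68, another marker of that list, differed by -0.35 (adjusted p = 0.881), with all 1XIMO arrays below all Control arrays. Of 3 tested erythrocyte markers 0 passed, with sums of 18693 to 37549 in 1XIMO and 21505 to 34840 in Control. The part of these cells in the Hmox1 difference was not tested.

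The remaining Nrf2 targets did not pass on all 9 arrays, although several did not overlap. Nqo1, a reductase that takes quinones to hydroquinones, read 13.62, 12.46 and 13.01 in 1XIMO, against 12.29, 11.43 and 11.52 in Control. The groups were apart, by 1.28 ± 0.37 (adjusted p = 0.0701). Nqo1 passed with the replicate number as a block (adjusted p = 0.0450 over all 9 arrays, 0.000134 over only these groups) and without 6XIMO replicate 1 (0.0243). Txnrd1 encodes thioredoxin reductase 1, which hands electrons of NADPH to thioredoxin. Its brighter probe set (1398791_at) read 14.20, 14.19 and 14.11 in 1XIMO, against 13.37, 13.16 and 13.27 in Control. The arrays of each group lay close together and the groups were well apart, but the difference of 0.90 had an adjusted p of 0.133 in a fit whose spread includes the 6XIMO arrays. The dimmer one (1386958_at) differed by 1.09 (adjusted p = 0.169).

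Gclc and Gclm encode the catalytic and the modifier subunit of glutamate-cysteine ligase, the rate-limiting enzyme of glutathione synthesis. Their differences had opposite signs. The brighter Gclc probe set (1372523_at) read 13.94, 13.62 and 13.56 in 1XIMO, against 13.25, 12.53 and 12.84 in Control, 0.83 higher (adjusted p = 0.572). Gclm read 10.76, 10.70 and 10.72 in 1XIMO, against 11.43, 11.18 and 11.68 in Control, 0.70 lower (adjusted p = 0.189). Neither overlapped between the groups. The other Gclc probe set (1370688_at) overlapped and differed by 0.61 (adjusted p = 0.893).

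Nfe2l2 itself read 13.54 to 13.82 in 1XIMO and 13.52 to 14.0004 in Control, with a difference of -0.10 (adjusted p = 0.99). The 3 enzymes that remove superoxide and hydrogen peroxide also overlapped between the groups. Sod1, the cytosolic superoxide dismutase, differed by 0.02 and Sod2, the mitochondrial one, by 0.08. Cat, the catalase of peroxisomes, differed by -0.38 (adjusted p = 0.519).

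Without 6XIMO replicate 1, which enters this comparison only through the shared spread, 7 of the 13 members passed as higher and 1 as lower, where 9% and 15.4% of all probe sets did. The members that joined as higher were Nqo1, both Txnrd1 probe sets (adjusted p = 0.000845 and 0.0351) and the brighter Gclc probe set (0.0129), and the one lower was Gclm (0.0145). The differences between the groups are the same in both fits.

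**Figure D2:**
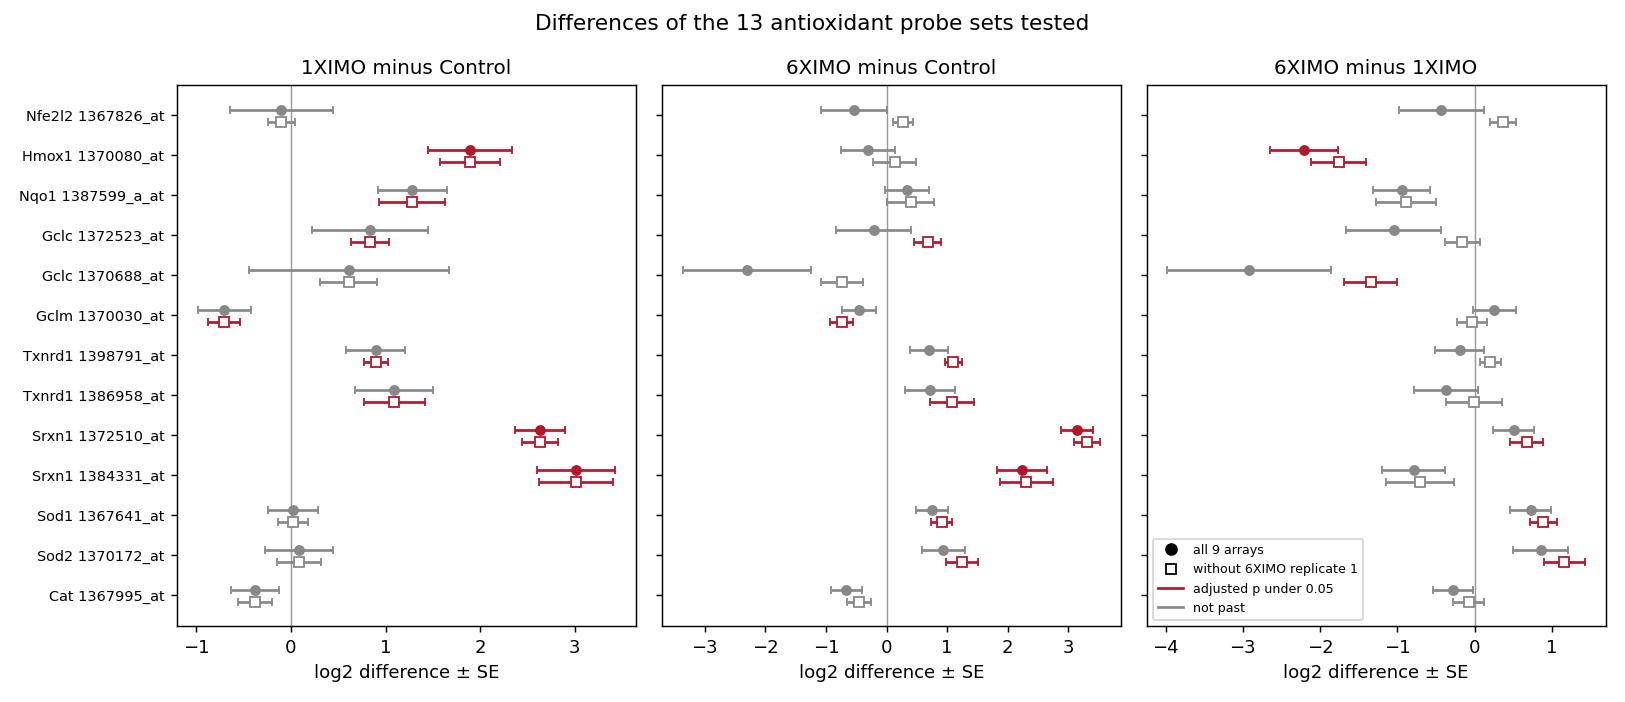
Log2 difference with SE bar of each tested member probe set for 1XIMO minus Control, 6XIMO minus Control and 6XIMO minus 1XIMO, on all 9 arrays (filled circles) and without 6XIMO replicate 1 (open squares); red marks an adjusted p under 0.05. Srxn1 is red in both comparisons with Control, Hmox1 lies at 1.90 after 1 session and at -0.31 after 6, and Sod1 and Sod2 lie near 0 after 1 session and at 0.75 and 0.94 after 6.

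After 6 sessions, Srxn1 was again higher than in Control and Hmox1 was not. The 2 bright Srxn1 probe sets passed, 2 of 13, where 8.16% of all probe sets passed as higher. As lower, 0 members passed, where 14.3% of all probe sets did. The median difference was 0.34, against -0.28 over all probe sets, and 0.68 against -0.30 without 6XIMO replicate 1. Of the 13, 3 lay above and 2 below all Control arrays, where 13.8% and 27.2% of all probe sets did. At an unadjusted p under 0.05, 5 were higher and 1 was lower, where 12.4% and 24.5% of all probe sets were. With quantile normalization 2 members were higher and 1, Cat, was lower, where 7.95% and 7.16% of all probe sets were. Both comparisons with Control use the same 3 Control arrays.

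The brightest Srxn1 probe set read 15.46, 16.14 and 15.80 in 6XIMO, against 12.39 to 12.91 in Control. All 6XIMO arrays, replicate 1 included, were far above Control. The difference was 3.14 ± 0.26 (SE), or 8.80-fold (adjusted p = 0.000174). The second probe set read 13.31, 13.87 and 13.22 in 6XIMO, against 10.32 to 12.04 in Control, a rise of 2.23 ± 0.41 (adjusted p = 0.00589). Without 6XIMO replicate 1 the brightest probe set differed by 3.31. Both passed in each comparison with Control under every alternative run, with ranges of 2.48 to 2.86 (1XIMO) and 2.72 to 3.31 (6XIMO) for the brightest. The dimmest probe set read 10.40, 7.40 and 6.07 in 6XIMO, all above Control.

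Hmox1 read 10.72, 12.17 and 11.97 in 6XIMO, against 12.23, 11.12 and 12.45 in Control. The groups overlapped, with a difference of -0.31 (adjusted p = 0.647), and of 0.14 (adjusted p = 0.772) without 6XIMO replicate 1. Nqo1 also overlapped, at 11.98, 11.66 and 12.62 in 6XIMO and 11.43 to 12.29 in Control, a difference of 0.34 (adjusted p = 0.539).

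For Nfe2l2 and both probe sets of Gclc and of Txnrd1, 6XIMO replicate 1 lay below the other 6XIMO arrays. It was also the lowest for Hmox1, the brightest Srxn1 probe set, Sod1, Sod2 and Cat. For Gclm and the dimmest Srxn1 probe set it was the highest, and for Nqo1 and the second Srxn1 probe set it lay between the others. The brighter Txnrd1 probe set read 13.17, 14.54 and 14.21 in 6XIMO, against 13.16 to 13.37 in Control. Replicate 1 lay within the Control range and the others above it, so the difference was 0.70 (adjusted p = 0.134) with it and 1.10 (adjusted p = 0.000335) without it. The other Txnrd1 probe set moved to 1.08 (adjusted p = 0.0346) without it. Nfe2l2 read 11.66, 14.09 and 14.02 in 6XIMO, against 13.52 to 14.0004 in Control. Its difference was -0.53 (adjusted p = 0.516) with replicate 1 and 0.27 (adjusted p = 0.205) without it.

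The 2 Gclc probe sets gave different answers after 6 sessions. The brighter one read 10.88, 13.74 and 13.36 in 6XIMO, against 12.53 to 13.25 in Control, and without replicate 1 it was 0.68 higher (adjusted p = 0.0308). The other read 7.03, 11.76 and 11.73 in 6XIMO, against 11.95 to 12.9985 in Control, and without replicate 1 it was 0.73 lower (adjusted p = 0.103). On 6XIMO replicates 2 and 3 one probe set was thus above and the other below all Control arrays, and the direction for Gclc depends on the probe set. Gclm read 11.55, 10.75 and 10.64 in 6XIMO, against 11.18 to 11.68 in Control. It was 0.45 lower (adjusted p = 0.273), and 0.74 lower (adjusted p = 0.0113) without replicate 1, which here lay within the Control range.

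Sod1 read 15.96, 16.33 and 16.56 in 6XIMO, against 15.57, 15.45 and 15.57 in Control, without overlap. The difference of 0.75 had an adjusted p of 0.0719, and 0.00282 without replicate 1. Sod2 read 15.71, 16.42 and 16.84 in 6XIMO, against 15.75, 15.08 and 15.32 in Control. Replicate 1 overlapped Control, and the difference was 0.94 (adjusted p = 0.0884) with it and 1.25 (adjusted p = 0.00441) without it. The direction of both depended on scaling, since quantile normalization gave -0.29 for Sod1 and -0.010 for Sod2. Both belong to the brightest 5% of probe sets, 787 in all, whose median difference between 6XIMO and Control was 0.45, with 73.1% above 0, and 0.75 without replicate 1. Srxn1 (1372510_at) is among these too and kept 2.75 under quantile normalization. Cat read 13.09, 13.65 and 13.77 in 6XIMO, against 14.48, 13.94 and 14.08 in Control. All 6XIMO arrays were lower, by 0.66 on average (adjusted p = 0.0917, and 0.0295 with quantile normalization). Without replicate 1 the difference was -0.46 (adjusted p = 0.0915).

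Without 6XIMO replicate 1, 7 of 13 members were higher than Control and 1 was lower, where 15.2% and 30.4% of all probe sets were. The 7 were both bright Srxn1, both Txnrd1, the brighter Gclc, Sod1 and Sod2 probe sets. Cell type markers moved in the same arrays. Of 9 tested chromaffin markers 4 were higher and 0 lower, with summed intensities of 1087112 to 2423082 in 6XIMO, against 335970 to 505217 in Control. Without 6XIMO replicate 1 they were 6 higher and 0 lower, with sums of 1087112 to 1259812. Of 9 tested cortex markers 6 were higher and 0 lower, with sums of 1062206 to 1977342 in 6XIMO and 354467 to 509391 in Control. Without 6XIMO replicate 1 they were 7 higher and 0 lower, with sums of 1062206 to 1397061. Th, Dbh, Pnmt, Chga, Star and Cyp11a1 averaged 16.13 to 16.71 over all 9 arrays. They thus belong to the brightest 5% of probe sets, whose median difference between 6XIMO and Control was 0.45. Of 11 tested macrophage and leukocyte markers 0 were higher and 2 lower, with sums of 86125 to 145902 in 6XIMO and 112668 to 133029 in Control. Without 6XIMO replicate 1 these were 1 higher and 3 lower, with sums of 128766 to 145902. After 1 session 0 chromaffin markers and 1 cortex marker were higher. The part of these markers and of the 3′/5′ ratios in the 6XIMO differences was not tested, and both go with the 6XIMO group.

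**Figure D3:**
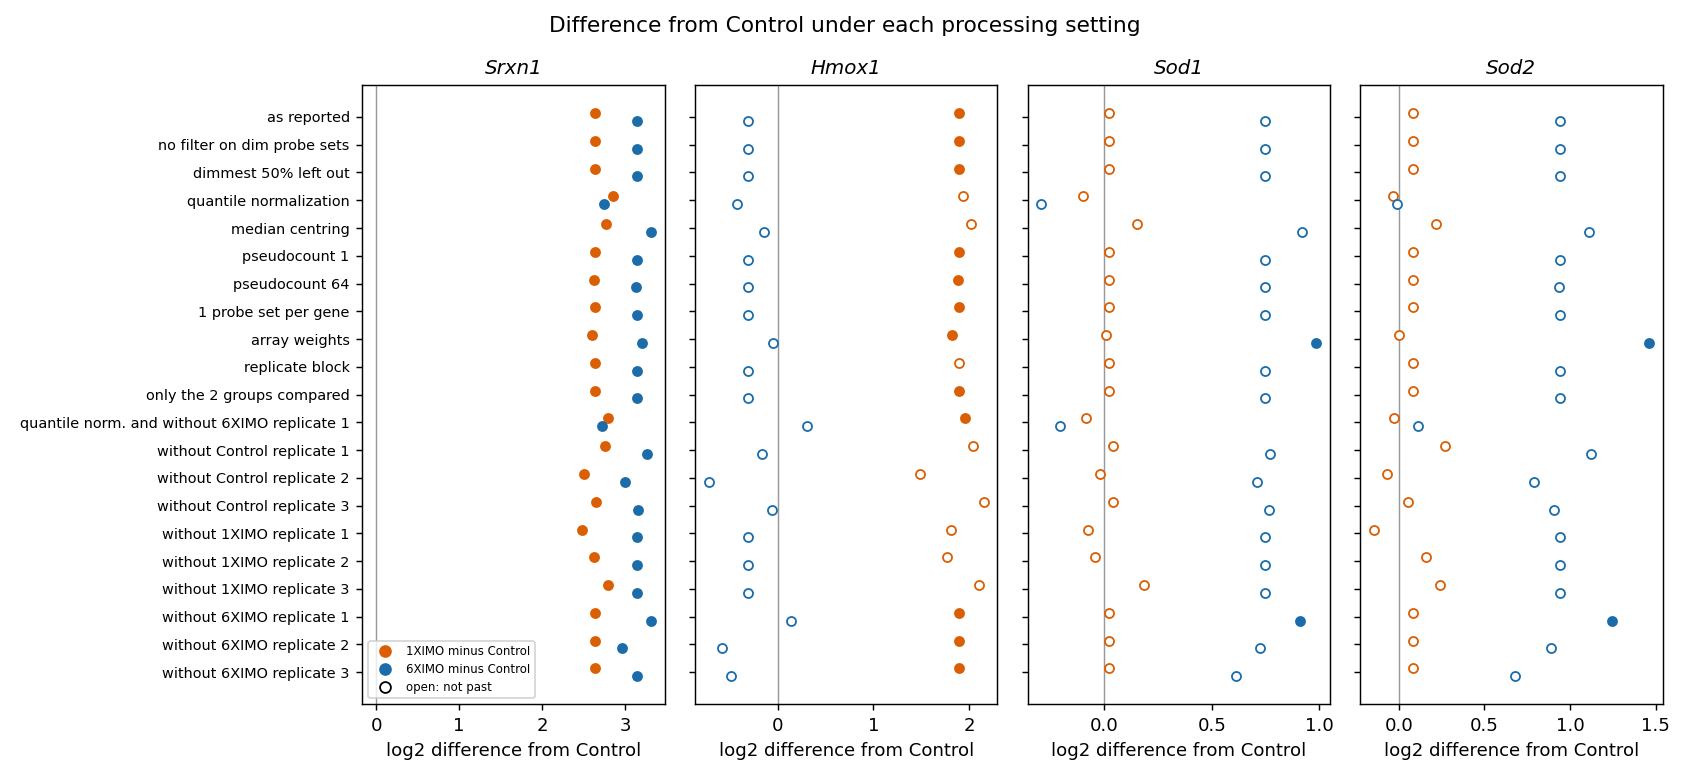
Difference from Control on the log2 scale for Srxn1 (1372510_at), Hmox1, Sod1 and Sod2 under the processing settings listed; filled points passed at an adjusted p under 0.05. Srxn1 is filled throughout, Hmox1 after 1 session stays between 1.49 and 2.15 but is open in 9 alternatives, and Sod1 and Sod2 after 6 sessions fall to or below 0 under quantile normalization.

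Between 6 sessions and 1 session, Hmox1 was the member that fell. It read 10.72, 12.17 and 11.97 in 6XIMO, against 14.003, 14.08 and 13.40 in 1XIMO, without overlap. The difference was -2.21 ± 0.44 (SE, adjusted p = 0.01997), and -1.76 (adjusted p = 0.00676) without 6XIMO replicate 1. The call was lost without any one 1XIMO array (adjusted p = 0.0713, 0.0834 and 0.0678 without replicates 1, 2 and 3), with quantile normalization (0.0595), with median centring (0.159) and in a fit of only these groups (0.0639). Thus 1 of 13 members passed as lower and 0 as higher, where 5.2% and 4.13% of all probe sets did. Of the 13, 3 lay below all 1XIMO arrays and 1 above, where 20.1% and 14.1% did. At an unadjusted p under 0.05, 2 were higher and 3 were lower, where 11.6% and 16.4% of all probe sets were. Of the 11 macrophage and leukocyte markers 0 passed in either direction here, with a median difference of -0.55 and sums of 86125 to 145902 in 6XIMO, against 109421 to 131946 in 1XIMO. The low end was 6XIMO replicate 1. Without it the 6XIMO sums were 128766 to 145902, and 0 of these markers were higher and 2 lower. Their part in the Hmox1 difference was not tested.

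The 2 bright Srxn1 probe sets differed in sign between the stressed groups. The brightest was 0.50 higher in 6XIMO than in 1XIMO (adjusted p = 0.241) and -0.11 under quantile normalization, while the second was 0.79 lower (adjusted p = 0.242) without overlap. The brightest passed without 6XIMO replicate 1 (0.67, adjusted p = 0.0395). Sod1 was 0.73 higher in 6XIMO (adjusted p = 0.113; 0.89, adjusted p = 0.00624 without replicate 1) and Sod2 0.85 higher (adjusted p = 0.156; 1.16, adjusted p = 0.0110 without it). The dimmer Gclc probe set was 2.92 lower (adjusted p = 0.109) and, without replicate 1, 1.35 lower (adjusted p = 0.0168). Without that array 3 members were higher and 2 lower, where 12% and 18.1% of all probe sets were.

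The wider pathway was followed in 118 further genes in 8 lists, of which 105 were on the array and 96 were tested, each by its brightest probe set. After 1 session 6 of the 96 were higher and 2 lower, where 3.8% and 4.46% of all genes were, and the median difference was -0.08. All 3 small Maf genes, whose proteins pair with Nrf2 or its repressor Bach1, rose. Maff averaged 12.90 ± 0.35 in 1XIMO and 8.18 ± 0.50 in Control (SD, n = 3 each), Mafk 12.65 ± 0.10 in 1XIMO and 11.49 ± 0.22 in Control, and Mafg 12.76 ± 0.05 in 1XIMO and 12.06 ± 0.05 in Control. The Control mean of Maff lay below 8.51, the mean over all 9 arrays that a probe set needed to be tested, so Maff was tested through the stressed groups and its difference is taken against a dim baseline. Keap1 differed by -0.77 (adjusted p = 0.111).

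Slc7a11, the cystine importer that feeds glutathione synthesis, rose by 2.18 ± 0.39 (SE, adjusted p = 0.0101) after 1 session, the one call among 12 tested genes of glutathione synthesis and recycling. Glrx, the cytosolic glutaredoxin, rose by 1.65 and Sesn1, a sestrin, fell by 1.71, among 19 thioredoxin, peroxiredoxin and glutaredoxin genes. Alas1, the first enzyme of haem synthesis, rose by 2.98 ± 0.54 (adjusted p = 0.0111), the one call among 10 tested haem and iron genes. Abcc4, an exporter, fell by 0.93, the one call among 25 genes of conjugation and detoxification. The lists of superoxide dismutase partners and metal binding (6 tested), NADPH supply (7) and oxidant-producing enzymes (8) had 0 calls. The other 7 calls than that of Maff were lost in 2 (Sesn1) to 9 (Abcc4) of the 21 alternatives. Leaving out Control replicates 1, 2 and 3 gave 5, 2 and 2 higher, leaving out 1XIMO replicates 1, 2 and 3 gave 3, 2 and 2, and leaving out any one of these 6 gave 1 lower. Of all probe sets, 2.48%, 2.08% and 1.84% were higher and 1.76%, 0.839% and 0.667% lower without Control replicates 1, 2 and 3. Without 1XIMO replicates 1, 2 and 3 these shares were 2.32%, 1.8% and 1.72% higher and 1.35%, 0.947% and 0.883% lower. Without 6XIMO replicate 1 there were 8 higher and 13 lower, where 9.27% and 18.2% of all genes were. Without 6XIMO replicate 3 there were 6 higher and 1 lower, where 3.25% and 2.9% of all probe sets were.

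**Figure D4:**
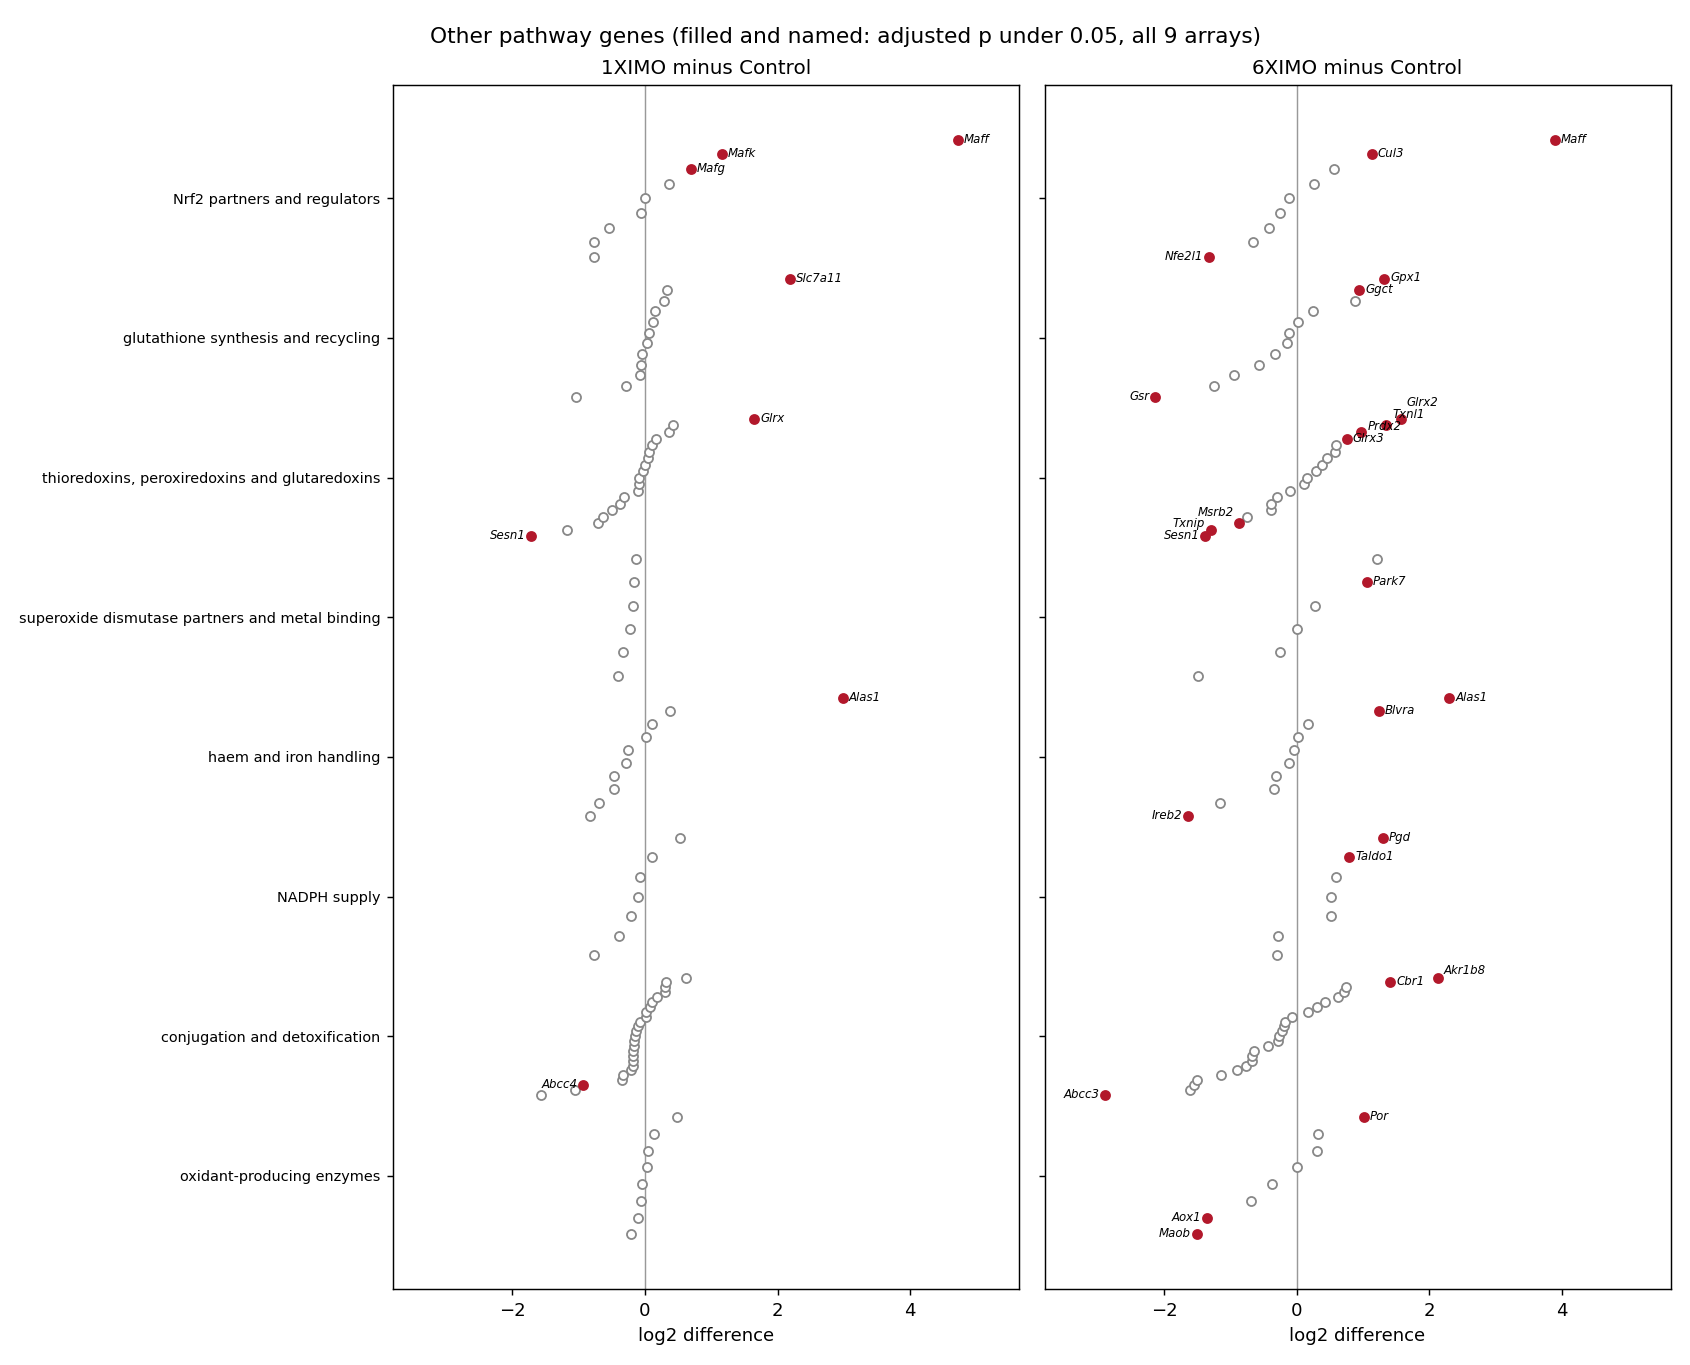
Difference from Control on the log2 scale of the 96 tested pathway genes that are not members, by list, after 1 session (left) and 6 sessions (right); filled, named points passed at an adjusted p under 0.05 on all 9 arrays. After 1 session 8 points are filled, with Maff farthest right at 4.73, and after 6 sessions 25 are filled on both sides of 0.

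After 6 sessions 16 of the 96 were higher and 9 lower, where 9.02% and 13.9% of all genes were (8 and 7 with quantile normalization, 4 and 1 with median centring). Of all probe sets, 7.95% and 7.16% passed with quantile normalization and 4.01% and 2.2% with median centring. Among Nrf2 partners and regulators, Maff was higher by 3.89, Cul3 was higher by 1.14, and Nfe2l1, a relative of Nrf2, fell by 1.32. Mafg averaged 11.95 ± 0.09 in 6XIMO and 12.06 ± 0.05 in Control, and it was 0.81 lower in 6XIMO than in 1XIMO (adjusted p = 0.0196). Slc7a11 averaged 9.84 ± 0.73 in 6XIMO and 8.97 ± 0.28 in Control (adjusted p = 0.135).

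Among glutathione genes, Gsr, which regenerates reduced glutathione, fell by 2.13 ± 0.43 (adjusted p = 0.00887). Without 6XIMO replicate 1 its difference was -1.59. Gpx1, the cytosolic glutathione peroxidase, was 1.32 higher, but -0.008 with quantile normalization, and Ggct was 0.95 higher. Of 19 thioredoxin, peroxiredoxin and glutaredoxin genes 4 were higher and 3 lower, among them Glrx2 (1.57 higher), Txnl1 (1.35 higher) and Sesn1 (-1.38). Park7, the redox-sensitive protein DJ-1, was 1.06 higher, the one call among 6 tested genes of superoxide dismutase partners and metal binding.

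In the haem and iron list, Alas1 was 2.30 ± 0.54 higher (adjusted p = 0.0160), Blvra, which reduces the biliverdin that Hmox1 makes, was 1.24 higher, and Ireb2, an iron-regulated RNA-binding protein, fell by 1.63. Without 6XIMO replicate 1 the differences were 3.07 (Alas1), 1.52 (Blvra) and -1.88 (Ireb2). For NADPH supply, Pgd and Taldo1 of the pentose phosphate pathway were higher by 1.31 and 0.80, 2 of 7 genes with 0 lower. In conjugation and detoxification, Akr1b8, an aldo-keto reductase, was 2.13 higher (0.50 with quantile normalization), Cbr1, a carbonyl reductase, was 1.41 higher and the exporter Abcc3 fell by 2.89. Without 6XIMO replicate 1 the differences were 2.03 (Akr1b8), 1.84 (Cbr1) and -2.40 (Abcc3). Of oxidant-producing enzymes, Por, the electron donor of microsomal P450 enzymes, was 1.02 higher, while Maob, a monoamine oxidase, fell by 1.501 and Aox1, aldehyde oxidase, by 1.35.

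Of these named calls after 6 sessions, those of Maff, Glrx2 and Abcc3 passed in all 20 alternatives, and those of Ggct and Cbr1 were lost in 11 and 10. All named calls were kept without 6XIMO replicate 1, though sizes such as those of Gsr and Alas1 changed. Over the alternatives the smallest differences were 0.28 for Park7, 0.30 for Taldo1, 0.55 for Cbr1, 0.56 for Cul3, and 0.59 for Txnl1 and Pgd. They were 1.08 for Glrx2, 1.01 for Blvra and 0.87 for Por. Leaving out Control replicates 1, 2 and 3 gave 11, 8 and 8 higher and 6, 7 and 6 lower. Of all probe sets, 5.13%, 5.01% and 4.21% were then higher and 7.54%, 7.11% and 5.57% lower. Leaving out 6XIMO replicate 1 gave 29 higher and 13 lower, where 17.1% and 29.4% of all genes were. Between 6 sessions and 1 session, 8 of the 96 were higher and 5 lower, where 4.73% and 4.29% were. Without 6XIMO replicate 1 these were 28 and 8 (14.1% and 15.8% of all genes). They were 0 and 0 without 1XIMO replicate 2 or 3, where 3 and 8 of all 15729 probe sets passed without replicate 2 and 0 and 0 of 15738 without replicate 3. They were 4 and 1 without 1XIMO replicate 1, where 122 and 147 of 15727 passed, 4 and 3 without Control replicate 3 or 6XIMO replicate 3, and 6 and 3 without Control replicate 2. Of all probe sets, 1.81% and 2.23% passed without Control replicate 3 and 2.26% and 3.16% without 6XIMO replicate 3. Without Control replicate 2 these shares were 2.09% and 2.69%. Taldo1 was 1.18 higher and Park7 1.19 higher in 6XIMO than in 1XIMO, and Maob was 1.46 lower.

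Genes whose levels ran most like those of 4 members were taken from 11293 genes over the 8 arrays other than 6XIMO replicate 1, by Pearson's correlation of log2 levels. These arrays share the group structure, so the values are descriptions. The genes most like Srxn1 were Eprs1, Ppp1r2 and Txnrd1, each at 0.99, of which only Txnrd1 is a member. No member was among the genes named for Hmox1, Nfe2l2 or Sod2. Those most like Hmox1 were Adipor1 (0.97), Tnfrsf1a and Smim14 (0.96 each). Those most like Nfe2l2 were Ccdc47 (0.97), Ufm1 (0.96) and Commd10 (0.95), and those most like Sod2 were Pgrmc1 (0.997), Slc25a5 (0.996) and Pgk1 (0.99).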

How the data were processed

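RNA of 9 samples was labelled with biotin and run by the array manufacturer, per the labels. The authors deposited linear intensities, 1 value for each array and probe set. Trimmed means (2% off each end) were 2500.57 to 2501.03, so arrays were scaled before deposit. How probes were summarised, background was removed and the target was set is not given in the sources used here. Raw probe values were not used. An annotation table gave 1 symbol to 20826 of 31099 probe sets. Testing used limma 3.58.1 (lmFit, eBayes with trend, R 4.3.3) on log2(value + 16), all 9 arrays, no covariates and 6 residual degrees of freedom, two-sided, with adjusted p-values over all probe sets tested. The script was tested on simulated data.

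Members and lists were chosen with earlier results of these data known. Named are all members, up to 3 called genes of each list and comparison with the smallest adjusted p, and the 3 genes most like 4 members. Deviations of same-numbered Control and 1XIMO arrays correlated at r = 0.58, 0.43 and 0.24, and those of differently numbered ones at -0.51 to 0.36. The number was therefore tried as a block, although it is only the number in the sample title and need not mark a pair. Same-numbered arrays of 6XIMO were at 0.14, 0.04 and 0.15 with Control and at 0.15, 0.08 and 0.10 with 1XIMO. Other settings varied the filter, scaling, pseudocount, probe set choice, weights, block and arrays. With 3 arrays in a group, their number limits the precision. Some label fields mention mouse or brain, and the organism field (rat) was used instead.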

Additional observations from a re-analysis of the deposited data

Results flagged for a closer look

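On all 9 arrays, Hmox1 was lower after 6 sessions than after 1. Its level was lower in 6XIMO than in 1XIMO (log2 difference -2.21, limma adjusted p = 0.01997), with all 3 6XIMO arrays below all 3 1XIMO arrays. This is the direct test of the difference between the responses, in which the shared Control arrays cancel. The difference from Control was -0.31 after 6 sessions and 1.90 after 1. The call was lost without any one 1XIMO array, with quantile normalization and with median centring. It was also lost in a fit of only these groups, where 0 of all 15696 probe sets passed. The 3′/5′ ratios and the cell type markers also go with the 6XIMO group, and their part in this difference was not tested.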

How the results depend on the processing

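Both bright Srxn1 probe sets kept their calls against Control under every alternative run. Counts are given as higher and lower. For the members, 1XIMO against Control gave 3 and 0 on all arrays, 7 and 2 with array weights, 7 and 1 in a fit of only these groups, 8 and 2 with that fit and the replicate block (chosen after seeing the data), and 7 and 2 with quantile normalization without 6XIMO replicate 1. The counts for 6XIMO against Control were 2 and 0, then 1 and 0 with 1 probe set per gene, 8 and 2 with weights, 2 and 1 with quantile normalization and 3 and 1 with quantile normalization without 6XIMO replicate 1. For 6XIMO against 1XIMO they were 0 and 1, then 4 and 3 with weights and 0 and 0 with quantile normalization, median centring or only these groups. For the other pathway genes, 1XIMO against Control gave 6 and 2, then 2 and 0 with median centring, 10 and 19 with weights, 7 and 12 in only these groups, 13 and 17 with the block added, and 10 and 21 with quantile normalization without 6XIMO replicate 1. The counts for 6XIMO against Control were 16 and 9, then 8 and 7 with quantile normalization, 4 and 1 with median centring, 38 and 21 with weights, 10 and 7 in only these groups, and 18 and 18 with quantile normalization without replicate 1. For 6XIMO against 1XIMO they were 8 and 5, then 4 and 1, 0 and 0, 35 and 17, 0 and 0, and 11 and 9 under the same settings. In the fits of only 2 groups, 1284 and 2271 of all 15766 probe sets passed for 1XIMO against Control (1889 and 3610 with the block), 746 and 1026 of 15739 for 6XIMO against Control, and 0 and 0 of 15696 for 6XIMO against 1XIMO. With quantile normalization without 6XIMO replicate 1, 10.3% and 14% of all probe sets passed for 1XIMO against Control. For 6XIMO against Control these were 15% and 16.8%, and for 6XIMO against 1XIMO 9.74% and 9.32%. With 1 probe set per gene, 9.36% and 14.9% passed for 6XIMO against Control. The causes were not tested.

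Leaving out 1 array at a time gave 2 to 7 members higher and 0 to 1 lower (1XIMO against Control), 2 to 7 and 0 to 1 (6XIMO against Control), and 0 to 3 and 0 to 2 (6XIMO against 1XIMO). Of all probe sets, 1.72% to 9% were then higher and 0.667% to 15.4% lower (1XIMO against Control). These shares were 4.21% to 15.2% and 5.57% to 30.4% for 6XIMO against Control, and 0% to 12% and 0% to 18.1% for 6XIMO against 1XIMO. The other pathway genes ranged over 2 to 8 higher and 1 to 13 lower, then 8 to 29 and 6 to 13, and 0 to 28 and 0 to 8. Left out alone, each Control and 1XIMO array ended calls among Mafk, Mafg, Slc7a11, Glrx, Alas1 and Abcc4.

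Some small differences changed sign. In 1XIMO against Control, Nfe2l2 was 0.0285 with median centring and ranged from -0.24 to 0.0028 over the arrays left out. Sod1 was -0.097 with quantile normalization, -0.085 with that and without 6XIMO replicate 1, and -0.078 to 0.18 over the arrays left out. Sod2 was -0.035, -0.0255 and -0.15 to 0.27 in the same order. In 6XIMO against Control, Nfe2l2 was 0.23 with weights and -0.95 to 0.27 over the arrays left out. Hmox1 was 0.30 with quantile normalization without replicate 1 and -0.72 to 0.14 over the arrays left out. The brighter Gclc probe set was 0.58 with weights, 0.59 with quantile normalization without replicate 1, and -0.75 to 0.68 over the arrays left out. With quantile normalization Sod1 was -0.29 (-0.21 without replicate 1), Sod2 was -0.010 and Gpx1 was -0.008 (-0.063 without replicate 1). In 6XIMO against 1XIMO, Nfe2l2 was 0.40 with weights, 0.19 with quantile normalization without replicate 1, and -0.85 to 0.37 over the arrays left out. Gclm was -0.051 with weights and -0.035 to 0.42 over the arrays left out. Txnrd1 (1398791_at) was 0.079 and -0.48 to 0.21 likewise, and Cat was 0.12 with weights. Srxn1 (1372510_at) was -0.11 and Sod1 was -0.20 with quantile normalization, and without replicate 1 these were -0.076 and -0.12.

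With the replicate block over all 9 arrays, 6XIMO included, Hmox1 lost its call in 1XIMO against Control (adjusted p = 0.0699) and Nqo1 gained one (0.0450). With the block in only the Control and 1XIMO arrays both passed (0.00148 and 0.000134). The member counts were 3 and 0, 2 and 0, and 0 and 1 in the 3 comparisons. In 6XIMO against Control, the block ended the calls of Ggct (0.0688) and Cbr1 (0.0641). Median centring moved the median of all probe sets from -0.12 to 0.0112 (1XIMO against Control) and from -0.28 to -0.10 (6XIMO against Control). All probe sets called were 573 higher and 571 lower (1XIMO against Control), 561 and 329 with quantile normalization and 204 and 65 with median centring. They were 1283 and 2249 in 6XIMO against Control, then 1250 and 1126, and 630 and 346 under those settings, and 649 and 817 between the stressed groups, then 366 and 275, and 91 and 59. Array weights, whose estimate did not fully converge, called 2177 and 3875, 3153 and 6127, and 3224 and 4933. Of all 15722 probe sets tested these were 13.8% and 24.6%, 20.1% and 39%, and 20.5% and 31.4%.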
